A study of Mus musculus with 2 samples.

Results

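The mitochondrial carriers of the Slc25 family were examined in gastrocnemius, the large muscle of the calf, of C57BL/6 mice aged 8 weeks. Members were all protein-coding genes of the GENCODE M21 annotation whose symbol is Slc25a followed by a number, which gave 47 of the 34745 genes in the count table. There were 2 RNA-seq libraries, 1 of genotype Cry2flox/flox (called Cry2flox) and 1 of genotype Cry2scko. Cry2 encodes cryptochrome 2, which represses transcription in the circadian clock. Floxed means that recombinase sites flank a stretch of the gene, so that it can be cut out. The labels name neither the recombinase nor the cells in which it acts, they give no hour of collection, and they do not say how many animals went into a library.

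Carriers of this family sit in the inner mitochondrial membrane, with a few in the outer membrane or the peroxisome, and move solutes such as nucleotides, phosphate, carboxylates, amino acids and cofactors. In muscle they pass ATP made in the mitochondrion to the contractile proteins and bring ADP, phosphate and fuel back in. They share a fold of repeated membrane-spanning units, and close relatives often carry the same substrate in different tissues.

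In these libraries most of the family differed little between genotypes, with 34 of 38 members counted well enough to compare within 1.5-fold, near the 87.2% of all genes compared that were. Of these 38 members, 1 was at least 2-fold lower in Cry2scko, Slc25a30, a relative of the uncoupling proteins, and 0 were at least 2-fold higher, where 4.88% of all genes were called in either direction. The ADP/ATP carrier Slc25a4 held 78.2% of the summed FPKM of the family in Cry2flox and 79.5% in Cry2scko, and its level differed by 1.05-fold. Of the reads of the family it took 60.8% and 62.3%, and the FPKM share depends on the gene lengths behind FPKM. Smaller differences split the members both ways, with the citrate carrier Slc25a1, the dicarboxylate carrier Slc25a10 and the branched-chain amino acid carrier Slc25a44 lower, and the pyrimidine nucleotide carrier Slc25a36, the glutamate carrier Slc25a22, Slc25a35, Slc25a45 and Slc25a53 higher, all by less than 2-fold. Slc25a53 came closest, at 1.97-fold from 24 and 42 reads.

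The Cry2flox library held 18909433 counted reads and the Cry2scko library 16423884. Cry2 had 676 and 133 reads, 4.46-fold lower in the library labelled Cry2scko. All 8 skeletal muscle fibre markers, such as Acta1 and Myh4, were read, with a summed level of 125750 CPM (counts per megaread of the scaled library) in Cry2flox and 120114 CPM in Cry2scko, and 0 of the 8 passed the 2-fold rule. With 1 library per genotype there is no replicate check and no p-value. The 95% intervals are exact Clopper-Pearson intervals of the share of a gene's reads that lie in Cry2scko, turned into a log2 ratio of Cry2scko over Cry2flox. They cover counting error only and not variation between animals. Reads copied by PCR and carrying no molecular tag need not be separate molecules, so the intervals may be too narrow even for counting error. The RNA is from whole muscle, in which fewer cells of a type and less RNA per cell cannot be told apart.

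Coding sequences of the ADP/ATP carriers are shown because reads of these paralogs are set side by side below. The stretch below surrounds the signature by which these carriers are recognised, a run of arginine and methionine codons, in capitals. It is read 5′ to 3′ from the GENCODE M21 transcripts on GRCm38.
Slc25a4: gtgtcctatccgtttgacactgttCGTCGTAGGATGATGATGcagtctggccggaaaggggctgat
Slc25a5: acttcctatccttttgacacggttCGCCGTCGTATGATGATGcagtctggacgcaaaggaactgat
Slc25a31: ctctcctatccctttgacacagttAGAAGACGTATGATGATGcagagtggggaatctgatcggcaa
Over these 66 bases Slc25a4 and Slc25a5 differed at 12, and Slc25a4 and Slc25a31 at 26. Across the aligned coding sequence Slc25a4 and Slc25a5 were 77.5% identical, with no identical run longer than 20 bases. Slc25a31 was 66.7% identical to each of the others. Its coding sequence spans 320 codons before the stop, against 298 in Slc25a4 and in Slc25a5.

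The ADP/ATP carriers exchange cytosolic ADP for ATP made in the mitochondrial matrix. Slc25a4 (ENSMUSG00000031633, chromosome 8, 46206797 to 46211284, minus strand, GRCm38), the isoform of heart and skeletal muscle, had 52838 reads or 1030 FPKM in Cry2flox and 48874 reads or 1097 FPKM in Cry2scko. FPKM, the deposited value, is reads scaled by the length of the gene model and by library size. The log2 ratio of Slc25a4 was 0.07 (95% interval 0.05 to 0.09), so counting error is small beside this difference, and variation between animals was not measured. Other ways of scaling the libraries gave 0.06 (DESeq2 size factors) to 0.10 (totals without mitochondrially encoded and the 20 most abundant genes). The value of 0.10 lies outside the counting interval.

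Slc25a5 (ENSMUSG00000016319, chromosome X, 36795651 to 36798807), the isoform of most other tissues and of dividing cells, had 613 reads or 10.8 FPKM in Cry2flox and 429 reads or 8.72 FPKM in Cry2scko. It was lower in Cry2scko by 1.26-fold, with a log2 ratio of -0.33 (-0.51 to -0.15). The gene has processed pseudogenes that are not in the count table, Gm5560 with 98.3% identity over 887 bases and Gm5529 with 96.8% over 900 bases, so some of its reads may be placed elsewhere or dropped. Of the reads of Slc25a4 and Slc25a5 together, Slc25a4 took 98.9% in Cry2flox (exact binomial 95% interval 98.8 to 98.9) and 99.1% in Cry2scko (99.0 to 99.2). The muscle isoform thus took nearly all reads of this pair in either genotype.

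Slc25a31 (ENSMUSG00000069041, chromosome 3, 40708855 to 40726096), the isoform of male germ cells, had 8 reads or 0.199 FPKM in Cry2flox and 0 reads in Cry2scko. With a floor of 3 reads, a count of 0 allows up to 0.181 CPM in that library. Against this floor the gene was 2.35-fold lower, if the 8 reads in Cry2flox are taken as exact. The counting interval, which covers error in either count, had its upper end at a log2 ratio of -0.59. A difference of less than 2-fold is thus not excluded. The mean of Slc25a31, 0.213 CPM, lies under the 1 CPM asked of genes that are compared, so this gene was not called.

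**Figure D1:**
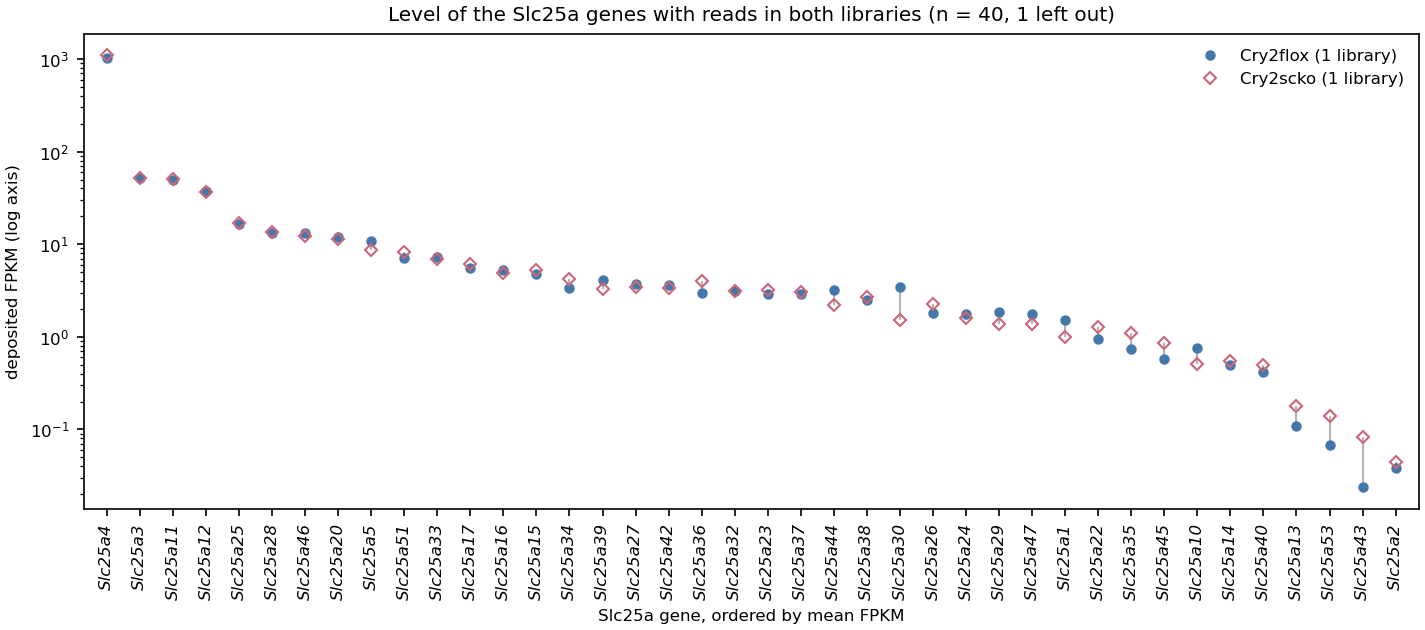
Deposited FPKM (log axis) of the members with reads in both libraries, 1 left out, ordered by mean FPKM. Filled circles are Cry2flox and open diamonds Cry2scko, 1 library each, with a grey line joining the values of a gene. Slc25a4 stands above all others at 1030 and 1097 FPKM, and the next gene, Slc25a3, is at 52.4 and 51.6.

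Below Slc25a4 came a small group of abundant carriers whose levels differed little between the libraries. The phosphate carrier Slc25a3 (chromosome 10, 91116574 to 91124059), which supplies phosphate for ATP synthesis, had 8330 and 7127 reads or 52.4 and 51.6 FPKM in Cry2flox and Cry2scko. The oxoglutarate/malate carrier Slc25a11, a limb of the malate-aspartate shuttle, had 3284 and 2886 reads or 49.5 and 50.05 FPKM. Slc25a12, the aspartate/glutamate carrier of muscle and the other limb of that shuttle, had 6127 and 5136 reads or 37.5 and 36.2 FPKM. The log2 ratios were -0.04 (-0.09 to 0.0039) for Slc25a3, -0.0032 (-0.08 to 0.07) for Slc25a11 and -0.07 (-0.13 to -0.02) for Slc25a12. Slc25a11 changes sign with the scaling, to 0.02 with total counts, and Slc25a3 and Slc25a12 did not.

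Slc25a25, a calcium-regulated ATP-Mg/phosphate carrier, had 4559 and 4057 reads or 16.6 and 17.0 FPKM, with a log2 ratio of 0.01 (-0.05 to 0.08). The carnitine-acylcarnitine carrier Slc25a20, which lets long-chain fatty acids in for oxidation, had 1178 and 977 reads or 11.9 and 11.3 FPKM, at -0.09 (-0.21 to 0.04). Slc25a28, mitoferrin 2, an iron importer, had 374 and 335 reads or 13.1 and 13.5 FPKM, at 0.02 (-0.19 to 0.24). Slc25a46, an outer-membrane member tied to mitochondrial shape, had 1091 and 889 reads or 13.2 and 12.4 FPKM, at -0.11 (-0.24 to 0.02). None of the intervals of these 4 genes excluded a ratio of 1.

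The order of levels and the shares of summed FPKM depend on the gene length behind FPKM. The deposited FPKM and counts imply a length for each gene, and in 8602 of 12798 genes compared (67.2%) it equalled the summed length of all distinct annotated exons, in which overlapping exons of different transcripts are counted more than once (tolerance 0.1%). This held for 27 of the 38 members compared, and the implied length was shorter in 9 and longer in 2. For Slc25a25 it was 14502 bases, against 3294 bases in its principal transcript. For Slc25a28 it was 1514 bases and for Slc25a30 1706 bases, against principal transcripts of 1535 and 3588 bases.

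With CPM per kilobase of the principal transcript in place of FPKM, Slc25a4, Slc25a3 and Slc25a11 kept the 3 top places in the same order. In Cry2flox Slc25a4 was then at 1462 and Slc25a3 at 275, a smaller gap than in FPKM. Slc25a25 moved from place 5 to 4, Slc25a5 from 9 to 7 and Slc25a39 from 16 to 8, while Slc25a28 moved from 6 to 10 and Slc25a30 from 26 to 36. The 8 highest members shared 6 genes between the scales. Ratios between the libraries do not rest on this length, because the implied length of a gene was the same in either library.

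The comparison between genotypes asked how the muscle transcriptome differs when Cry2 is lost, with Pax7 and satellite cells, the stem cells of muscle, named in the title of the series. Calls required a difference of 2-fold or more with an interval that excluded 1, in genes with at least 1 CPM on average. Across all genes 12832 were compared and 4.88% were called, 3.37% higher and 1.51% lower in Cry2scko. Of the 47 members, 38 were compared, 0 were called higher, 1 lower and 37 neither. The 1 call among 38 members is near the share of calls among all genes. Intervals excluded a ratio of 1 in 17 of the 38 members, 8 above and 9 below, against 33.5% of all genes compared. Over all genes this share was larger at depth, with 3506 of 9565 from 5 CPM and 798 of 3267 from 1 to under 5 CPM. Among the members it was not, with 12 of 31 and 5 of 7.

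The median log2 ratio of the 38 members was -0.011 with quartiles of -0.18 and 0.14, beside a median of -0.0027 with quartiles of -0.17 and 0.18 over all genes compared. The sign of either median turns with the scaling, to 0.0088 for the members and 0.018 for all genes with total counts. In all, 34 of the 38 members lay within 1.5-fold, against 87.2% of all genes. All 31 members with a mean of 5 CPM or more were within 1.5-fold, where 93.1% of all genes at that depth were. Of the 7 members between 1 and 5 CPM only 3 were, where 70.0% of all genes at that depth were.

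**Figure D2:**
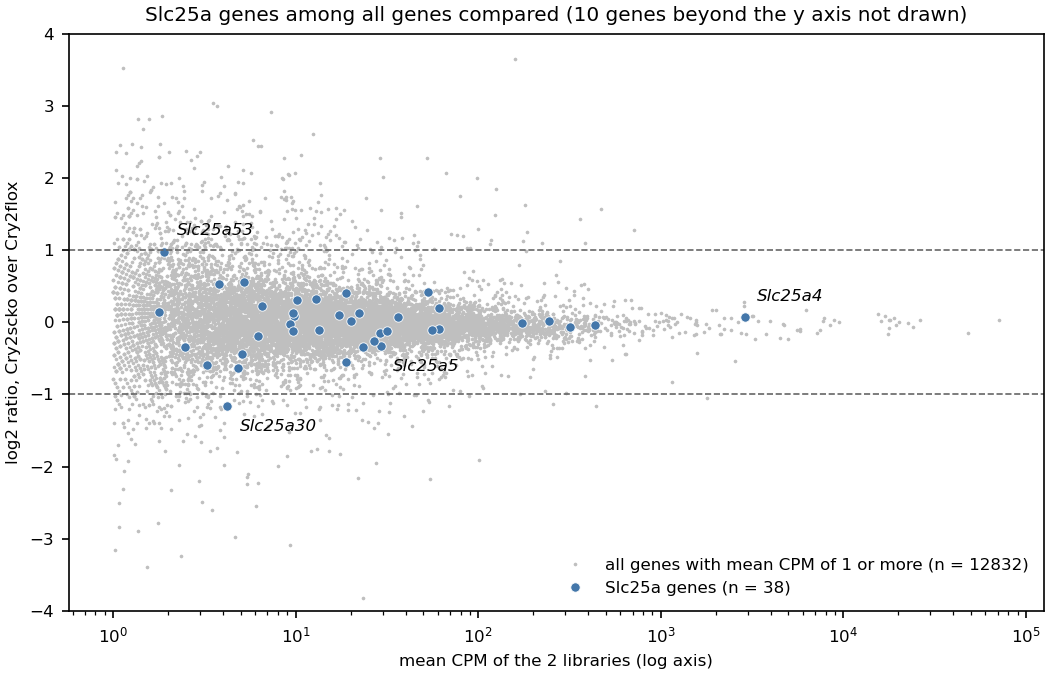
Log2 ratio of Cry2scko over Cry2flox against the mean CPM of both libraries (log axis) for the 12832 genes compared (grey) and the 38 Slc25a genes among them (blue). Dashed lines mark 2-fold. Slc25a30 at -1.16 lies past the lower line and Slc25a53 at 0.98 just inside the upper one.

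Slc25a30 (ENSMUSG00000022003, chromosome 14, 75760117 to 75787037, minus strand) was the called member. It encodes a carrier related to the uncoupling proteins that was first described in kidney. It had 110 reads or 3.41 FPKM in Cry2flox and 43 reads or 1.53 FPKM in Cry2scko. The level was 2.24-fold lower, with a log2 ratio of -1.16 (-1.72 to -0.65), so the interval reaches from well past 2-fold to less than 2-fold. Its mean of 4.23 CPM puts it under the depth of 5 CPM, and a filter at 5 CPM leaves it out. Slc25a30 shares no exon bases with another annotated gene, and the count table lists no other gene within 5 kb of it.

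Marker lists of other cell types moved between these libraries as well. For comparison, 3.37% of all genes compared were called higher in Cry2scko and 1.51% lower. Slow-fibre markers were higher in Cry2scko (5 of 7 called, summed level 1255 CPM in Cry2flox and 2658 in Cry2scko), as were B cell markers (5 of 5, 31.9 and 90.1 CPM) and T cell markers (3 of 5, 9.96 and 19.3 CPM). Summed levels were lower in Cry2scko for tendon markers (3 of 4 called, 91.1 and 38.7 CPM), fibroblast and matrix markers (1 of 6, 1609 and 1016 CPM) and adipocyte markers (1 of 5 compared, 36.2 and 21.8 CPM). Brown adipocyte markers had 0 of 3 called with 112 and 143 CPM, most of it from Cox7a1 (108 and 140 CPM). Cox7a1 was at a log2 ratio of 0.38, and Cidea and Dio2 were at -0.89 and -0.37. The defining gene of this list, Ucp1, had 0 reads in either library. Erythroid markers had 0 of 5 called with 47.2 and 57.4 CPM, endothelial markers 0 of 4 and macrophage markers 0 of 4. The part of these shifts in the ratios of Slc25a30 and the other members was not tested.

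Upstream sequence of Slc25a30 is shown because it is the called member and because CRY2 acts on factors that bind E-boxes in promoters. The 250 bases before the annotated start lie at chr14:75787038-75787287 on the minus strand (RefSeq, GRCm38.p6). Capitals mark the match to CACGTT on the other strand, a variant E-box.
Slc25a30: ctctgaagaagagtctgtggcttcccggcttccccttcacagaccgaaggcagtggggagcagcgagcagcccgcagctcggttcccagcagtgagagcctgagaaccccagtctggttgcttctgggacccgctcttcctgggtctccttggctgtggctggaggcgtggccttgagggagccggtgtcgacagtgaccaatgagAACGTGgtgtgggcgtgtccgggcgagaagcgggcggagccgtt
No CACGTG, the canonical E-box, is in this window. Promoters in the table run from 250 bases before to 50 after a start and were searched on both strands. They were found by symbol for 36 of the 47 members, of which 7 hold CACGTG (19.4%, against 8.09% of 27025 genes with a promoter) and 3 hold CACGTT (8.33%, against 5.44%). Among protein-coding genes that were compared, CACGTG was in 5 of 29 members (17.2%) and in 11.9% of 9575 genes, and CACGTT was in 2 of 29 members (6.90%) and in 6.34% of genes. The other compared member with CACGTT was Slc25a28, at a log2 ratio of 0.02.

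The 5 compared members with CACGTG are shown with the motif in capitals and up to 20 bases on each side, all before a RefSeq start. The stretch of Slc25a15 lies inside its longer GENCODE M21 gene model, and those of Slc25a14 and Slc25a33 overlap the first bases of theirs.
Slc25a1 (chr16:17928433-17928469, minus): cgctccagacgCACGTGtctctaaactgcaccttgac
Slc25a14 (chrX:48623374-48623419, plus): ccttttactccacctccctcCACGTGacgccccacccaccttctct
Slc25a15 (chr8:22398329-22398374, minus): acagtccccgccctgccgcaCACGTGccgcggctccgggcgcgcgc
Slc25a33 (chr4:149774268-149774295, minus): cgtcacggcccggcctccgcCACGTGac
Slc25a36 (chr9:97111203-97111248, minus): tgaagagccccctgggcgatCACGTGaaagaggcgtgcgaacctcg
Their log2 ratios were -0.64 for Slc25a1, 0.14 for Slc25a14, 0.10 for Slc25a15, -0.10 for Slc25a33 and 0.42 for Slc25a36. They lay on both sides of equality and 0 of the 5 were called. A match of letters is a description and does not show that a factor binds there.

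The other uncoupling-protein-like members did not follow Slc25a30 past the rule. Slc25a27, known from brain as UCP4, had 189 and 153 reads at -0.12 (-0.44 to 0.19). Slc25a14, also known from brain, had 32 and 31 reads at 0.14 (-0.62 to 0.90), an interval that includes 1.5-fold in either direction.

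ATP-Mg/phosphate carriers adjust the adenine nucleotide pool of the matrix. Besides Slc25a25, Slc25a23 had 401 and 386 reads at 0.13 (-0.08 to 0.33) and Slc25a24 had 124 and 96 reads at -0.18 (-0.59 to 0.21). Slc25a25 took 91.9% of its reads with Slc25a23 in Cry2flox and 91.3% in Cry2scko, with overlapping intervals of 91.1 to 92.7 and 90.4 to 92.1. Slc25a41 had 0 and 1 reads and Slc25a54 had 0 in either library.

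Of the carriers of carboxylates 3 of 4 were compared and 0 called, with 2 intervals below a ratio of 1 and 0 above. Of all genes compared, 17.3% had an interval below 1 and 16.3% above. The counts of intervals in this and the following groups rest on few genes. Slc25a1, which exports citrate for lipid synthesis, had 110 reads or 1.54 FPKM in Cry2flox and 62 reads or 0.997 FPKM in Cry2scko, a log2 ratio of -0.64 (-1.12 to -0.18). Slc25a10, which exchanges malate or succinate for phosphate, had 74 and 43 reads at -0.59 (-1.18 to -0.04). These genes were 1.56-fold and 1.51-fold lower, while the far more abundant Slc25a11 was at -0.0032. The oxodicarboxylate carrier Slc25a21 had 0 reads in either library.

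The aspartate/glutamate and glutamate carriers split. Slc25a22, which takes glutamate into the matrix, had 305 reads or 0.941 FPKM in Cry2flox and 355 reads or 1.26 FPKM in Cry2scko. It was 1.32-fold higher, at 0.40 (0.18 to 0.63), and was not called. Slc25a13, the liver relative of Slc25a12, had 11 and 16 reads, and Slc25a18 had none. Slc25a12 therefore took 99.8% of its reads with Slc25a13 in Cry2flox and 99.7% in Cry2scko.

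Among carriers of other amino acids, glutathione and carnitine, 7 of 8 were compared and 0 called, with 3 intervals below a ratio of 1 and 0 above. Slc25a44, which takes branched-chain amino acids into the mitochondrion, had 421 reads or 3.20 FPKM in Cry2flox and 254 reads or 2.22 FPKM in Cry2scko. It was 1.46-fold lower, at -0.54 (-0.78 to -0.32), the lowest ratio among members with a mean of 5 CPM or more. Slc25a39, a glutathione importer, had 490 and 340 reads or 4.11 and 3.29 FPKM, at -0.34 (-0.55 to -0.14). Its relative Slc25a40 had 114 and 117 reads or 0.418 and 0.494 FPKM, at 0.22 (-0.16 to 0.61), and it has a processed pseudogene, Gm5066, that is not in the count table and is 96.3% identical over 724 bases. These glutathione carriers thus had ratios on opposite sides of 1, with the interval of Slc25a40 including 1. Slc25a39 took 81.1% of the reads of both in Cry2flox (77.8 to 84.2) and 74.4% in Cry2scko (70.1 to 78.3). The intervals overlap narrowly, which does not show that the shares are equal.

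Slc25a29, a carrier of basic amino acids, had 110 and 71 reads or 1.86 and 1.38 FPKM at -0.44 (-0.90 to -0.0050), an interval whose upper end lies close to 0. The ornithine carrier Slc25a15 had 314 and 296 reads at 0.10 (-0.14 to 0.33), and Slc25a38, a glycine carrier needed for haem synthesis, 178 and 166 reads at 0.08 (-0.23 to 0.40). Slc25a2, the second ornithine carrier, had 1 read in each library.

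Cofactor and nucleotide carriers were all compared, 9 of 9, with 0 called, 3 intervals above a ratio of 1 and 1 below. Slc25a36, which moves pyrimidine nucleotides, had 854 reads or 2.96 FPKM in Cry2flox and 1006 reads or 4.01 FPKM in Cry2scko, a log2 ratio of 0.42 (0.29 to 0.55), 1.34-fold higher. The pseudogene Gm13217 is 99.6% identical to it over 544 bases and had 27 and 15 reads, so a small part of its reads is uncertain. Slc25a33, the other pyrimidine nucleotide carrier, had 260 and 213 reads at -0.10 (-0.37 to 0.16). The share of Slc25a33 in the reads of this pair was 23.3% in Cry2flox (20.9 to 25.9) and 17.5% in Cry2scko (15.4 to 19.7), intervals that do not overlap.

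Slc25a51, which brings NAD into the matrix, had 1058 and 1073 reads at 0.20 (0.08 to 0.33). Slc25a26, the importer of S-adenosylmethionine, had 215 and 237 reads or 1.797 and 2.28 FPKM at 0.32 (0.05 to 0.60). It shares 144 exon bases on the other strand with Lrig1, which had 1402 and 1009 reads, and strand use in the counting is not given in the sources used here. The intervals of Slc25a16, Slc25a17, Slc25a32 and Slc25a42 included 1, with ratios from -0.15 for Slc25a16 to 0.13 for Slc25a17.

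Both iron importers had intervals that included a ratio of 1. Slc25a37, mitoferrin 1, the form of red cell precursors, had 664 and 618 reads at 0.08 (-0.08 to 0.24), beside Slc25a28 at 0.02. The protein-coding gene Gm16867 is 100% identical to Slc25a37 over 382 bases and had 0 reads in either library, so reads from that stretch are uncertain. Slc25a28 took 36.0% of the reads of both in Cry2flox (33.1 to 39.0) and 35.2% in Cry2scko (32.1 to 38.3).

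Members with no substrate assigned here had 5 of 7 compared, 0 called, 3 intervals above a ratio of 1 and 0 below. Slc25a35 had 79 reads or 0.732 FPKM in Cry2flox and 103 reads or 1.10 FPKM in Cry2scko, a log2 ratio of 0.56 (0.13 to 1.01), the highest ratio among members with a mean of 5 CPM or more. It shares 31.3% of its exon bases with Rangrf on the other strand, which had 108 and 88 reads, so reads of these genes cannot be told apart if strand was not used. Its relative Slc25a34 had 171 and 186 reads or 3.39 and 4.24 FPKM at 0.30 (-0.0030 to 0.61). Slc25a53, on chromosome X, had 24 and 42 reads at 0.98 (0.23 to 1.78), a 1.97-fold difference just inside the 2-fold limit. It passed that limit when total counts without mitochondrial and the 20 most abundant genes set the scale. Slc25a45 had 58 and 74 reads at 0.53 (0.02 to 1.06) and Slc25a47, a liver carrier, 52 and 36 at -0.34 (-1.002 to 0.29). Slc25a43 had 1 and 3 reads and Slc25a48 none.

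**Figure D3:**
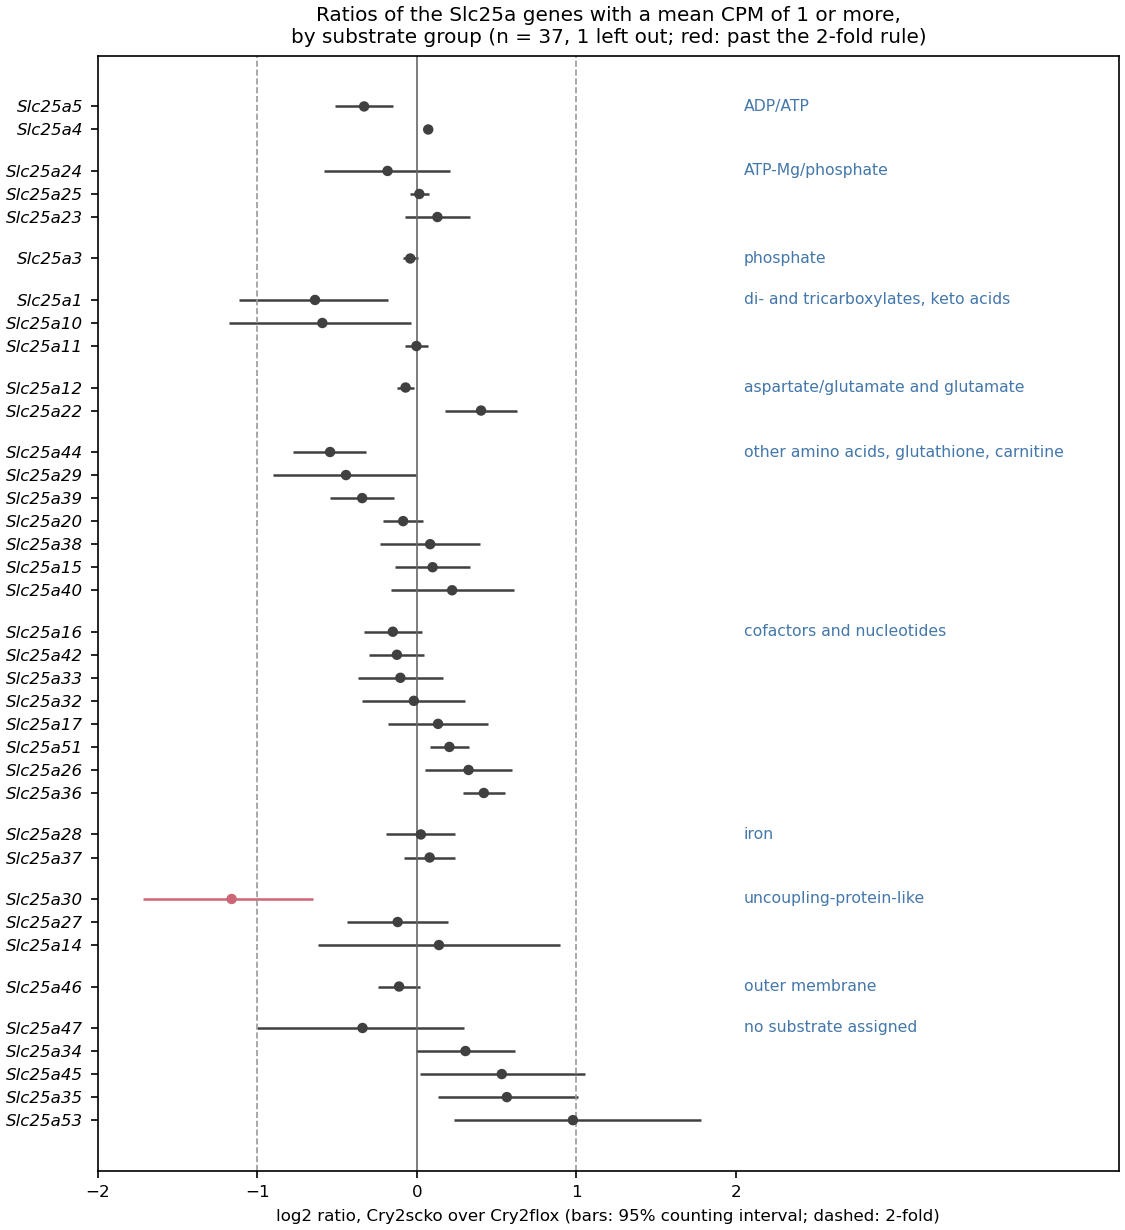
Log2 ratio of Cry2scko over Cry2flox for the members compared, 1 left out, grouped by substrate, with 95% counting intervals as bars and 2-fold as dashed lines. Slc25a30 (red) is the 1 member past the 2-fold rule, and the bars of 21 members cross a ratio of 1.

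Genes that work with these carriers also differed by less than 2-fold where compared. In lists chosen by function, 41 of 43 genes were compared and 0 were called in either direction, where 4.88% of all genes were. Most of the genes in these lists had a mean of 5 CPM or more, and 2.62% of all genes at that depth were called. The median log2 ratio of the 41 genes was 0.03. Of the genes not compared, Ucp1 had 0 reads in either library. Mcub, at a mean of 0.93 CPM, had 10 and 22 reads and a log2 ratio of 1.28 (0.18 to 2.56). Carrier-fold proteins with other symbols were all above 1 where compared, 4 of 4, with 3 intervals excluding it. Ucp3, the uncoupling protein of skeletal muscle, had 2276 reads or 20.1 FPKM in Cry2flox and 2680 reads or 27.3 FPKM in Cry2scko, a log2 ratio of 0.42 (0.34 to 0.50). Ucp2 was also at 0.42, Mtch1 at 0.23 and Mtch2 at 0.02.

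Import of carriers runs through the TOM complex and the TIM22 complex, and 0 of 10 genes of this route were called. Tomm22, a receptor of the outer membrane, had 967 and 472 reads in Cry2flox and Cry2scko, a log2 ratio of -0.85 (-1.01 to -0.69), while the pore Tomm40 was at 0.21 and the carrier receptor Tomm70a at -0.15. Of 17 other channels and transporters compared, 0 were called. The pyruvate carrier subunit Mpc1 was at 0.57 (0.39 to 0.76) with 424 and 555 reads, and its partner Mpc2 at 0.08. Of 10 proteins that work with carriers, namely enzymes of the malate-aspartate and carnitine shuttles, mitochondrial creatine kinase (Ckmt2) and cyclophilin D (Ppif), 0 were called, with Got1, the cytosolic aspartate aminotransferase, at -0.46 (-0.52 to -0.40) and Cpt1b, the muscle carnitine palmitoyltransferase, at 0.10.

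**Figure D4:**
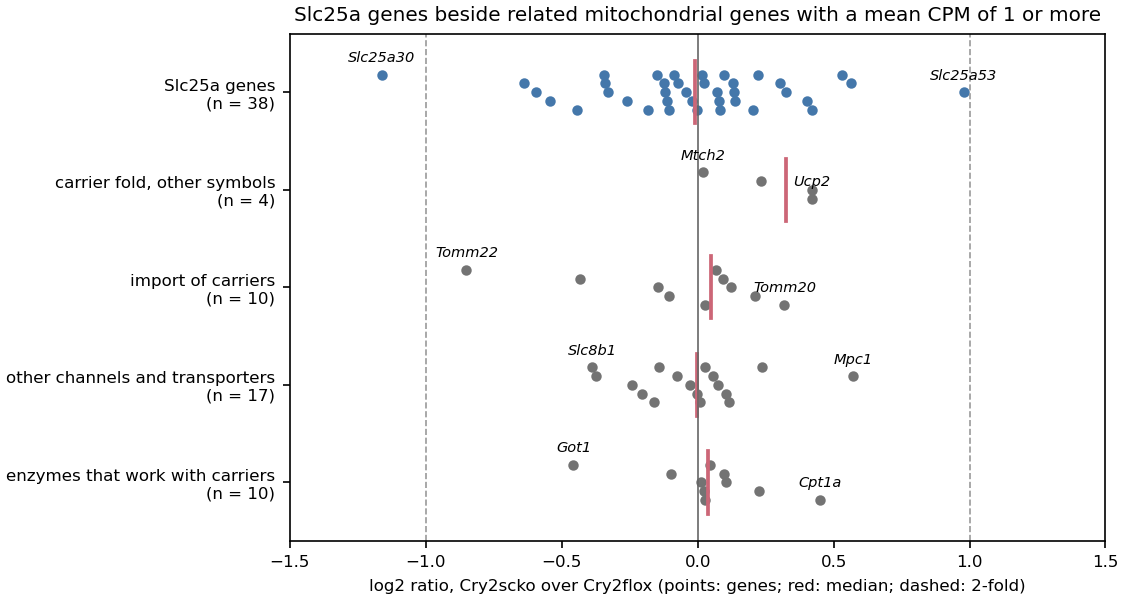
Log2 ratio of Cry2scko over Cry2flox of the 38 Slc25a genes (blue) and of 4 lists of related mitochondrial genes (grey), 1 point per gene, with red bars at the median and dashed lines at 2-fold. Tomm22 at -0.85 is the lowest related gene and Mpc1 at 0.57 the highest.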

How the data were processed

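The authors deposited whole-number read counts per Ensembl gene and 1 file of FPKM values per library, per the file headers. The submitters' processing notes name GRCm38 and the tools HISAT2 (2.0.4), StringTie (1.3.0) and CASAVA. The counter, annotation release and strand setting are not given in the sources used here. Symbols, exons and positions came from GENCODE M21 (GRCm38), and 401 of 34745 identifiers had no symbol. Libraries were scaled by edgeR's TMM method (version 4.0.16 in R 4.3.3; factors 0.993 for Cry2flox and 1.01 for Cry2scko), and 0.5 reads were added to each count for log2 ratios. At 1 CPM a gene has 18.8 reads in Cry2flox and 16.5 in Cry2scko. The calling step was tested on simulated counts that held counting error only, so that test says nothing about variation between animals. Near-identical copies (95% identity over 300 bases) were sought with BLAST 2.17.0 among M21 transcripts.

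Described in full were the ADP/ATP carriers, the 8 members with the highest FPKM, called members, and the 6 highest and 6 lowest ratios from 5 CPM, with the others by substrate group. Counts cover all members, of which 1 is not reported by name here. Members and lists were chosen with earlier results of these data known, and the pairs of relatives, the genes named outside this rule and the motif search after values were seen. Alternatives were total counts, DESeq2 1.42.0 size factors, totals without mitochondrially encoded and the 20 most abundant genes, FPKM with 0.1 added, no filter, a 5 CPM filter, 5 reads added, a 1.5-fold threshold, and no members with shared exons.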

Additional observations from a re-analysis of the deposited data

How the results depend on the processing

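Slc25a30 was called lower under total counts, DESeq2 size factors, totals without mitochondrially encoded and the 20 most abundant genes, FPKM, 5 reads added, and without members that share exons. Calls with FPKM used the 2-fold limit and the 1 CPM filter, with no interval. The number of members called lower was 0 with a mean CPM of 5 or more, because Slc25a30 is then not compared. It was 2 without a filter, where Slc25a31 enters, and 3 at a 1.5-fold threshold, where Slc25a1 and Slc25a10 enter. The number called higher was 1 with totals without mitochondrially encoded and the 20 most abundant genes and 1 at 1.5-fold, Slc25a53 each time. The median log2 ratio of members ranged from -0.031 to 0.017, and the number of intervals excluding 1 from 12, with fewer members compared, to 18. Of 110 values of the 22 members that the rule for full description takes, 107 stayed within the counting interval. The exceptions were Slc25a4 with total counts (0.09), with totals without the most abundant genes (0.10) and with FPKM (0.09). Over all genes, 432 were called higher and 194 lower, against 789 and 396 without a filter, 175 and 76 from 5 CPM, 842 and 558 at 1.5-fold, and 311 and 116 with FPKM. Ratios of genes under about 5 CPM are limited by depth. No paired analysis was possible because each genotype has 1 library.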
